A study of Homo sapiens with 3 samples.

Results

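The WNT ligand genes followed across all cells were WNT3 (ENSG00000108379), WNT3A (ENSG00000154342), WNT8A (ENSG00000061492), WNT5A (ENSG00000114251), WNT5B (ENSG00000111186), WNT11 (ENSG00000085741) and WNT6 (ENSG00000115596). They were chosen by gene symbol and are 7 of the 38606 genes listed in each library, and 7 of the 19 genes listed that encode WNT ligands. The cells were HES3, an established human embryonic stem cell line, with a green fluorescent protein reporter at MIXL1, grown as disc-shaped micropatterned colonies. Every library had the ROCK inhibitor Y-27632 at 10 µM at seeding, 24 h of growth and then 48 h in 1 treatment. The treatments were BMP4 at 50 ng/mL, CHIR99021 at 6 µM (CHIR), or CHIR99021 at 3 µM with Activin A at 100 ng/mL (CHIR+Activin). BMP4 is a bone morphogenetic protein, CHIR99021 inhibits the kinase GSK3 and so stabilises beta-catenin, and Activin A signals through the receptors used by NODAL. Each treatment is 1 library of about 10 pooled colonies, with no untreated library, and the CHIR99021 dose differed between the last 2 treatments. Differences between treatments therefore have no replicate check and no p-value, and the intervals below are 95% intervals that cover counting error only.

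WNT ligands are secreted, lipid-modified proteins that bind Frizzled receptors on nearby cells. Some of them, WNT3, WNT3A and WNT8A among these, are known mainly for stabilising beta-catenin through LRP co-receptors, while WNT5A, WNT5B and WNT11 are known mainly for beta-catenin-independent signalling that orients and moves cells. In the mouse embryo Wnt3 is needed for the primitive streak to form, Wnt3a for caudal mesoderm, and Wnt5a for the outgrowth of the body axis.

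The kept cells numbered 9401 in BMP4, 7084 in CHIR and 6876 in CHIR+Activin, with medians of 12623, 22919.5 and 17202 UMIs (unique molecular identifiers, each standing for 1 captured RNA molecule) per cell. Levels are in CPM (UMIs of a gene per library, scaled to the same fixed total in each library), and 3 UMIs corresponded to 0.0219 CPM in BMP4, 0.0162 in CHIR and 0.0230 in CHIR+Activin. Because depth differed, shares of cells with a UMI are given after each cell was thinned to 10000 UMIs, which left 7041, 6892 and 6543 cells. These are 74.9%, 97.3% and 95.2% of the kept cells. The loss in BMP4 was uneven over the clusters described below. Cluster 7, the highest in WNT3 at 117 CPM, kept 184 of 635 cells, and cluster 9 kept 0 of 140. Values from thinned BMP4 cells leave the others out. Pairs of libraries shared between 8 and 12 cell barcodes, and no barcode was found in all 3.

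BMP4 colonies held more WNT ligand RNA than the other colonies, and a different mixture. All 19 WNT ligand genes together made up 216 CPM in BMP4, 90.5 CPM in CHIR and 89.1 CPM in CHIR+Activin. In BMP4, WNT3 gave 41.0% of these UMIs and WNT5A 35.7%. In CHIR and CHIR+Activin, WNT3 alone gave 69.8% and 72.5%, whereas WNT5A gave 1.60% and 5.20%. WNT5B came next to WNT3 in both, with 18.1% and 12.3%. After thinning, a UMI of at least 1 of the 7 ligands was found in 79.2% of the cells of BMP4, 53.1% in CHIR and 52.1% in CHIR+Activin. UMIs of 2 or more of the ligands were found in 38.4%, 8.58% and 7.70% of cells.

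**Figure D1:**
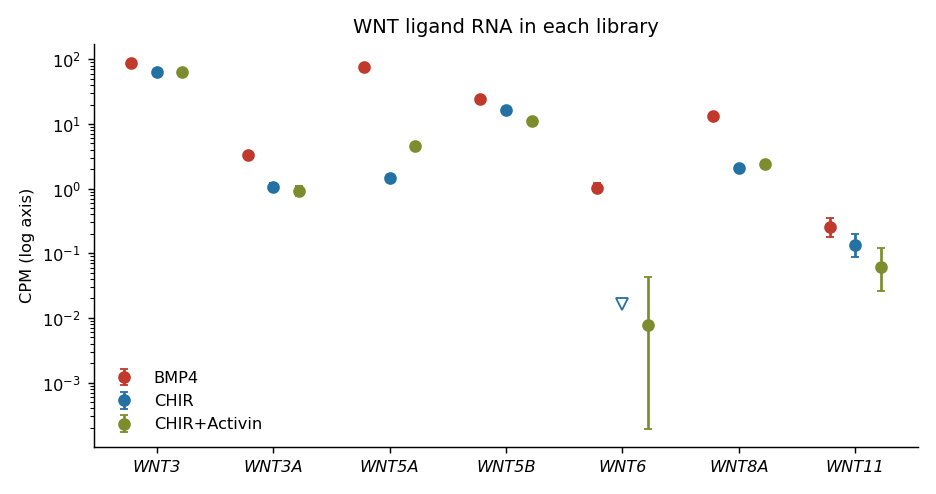
Level of each of the 7 WNT ligands in CPM (log axis) by treatment, 1 library each. Bars are exact Poisson 95% intervals and the open triangle marks the 3-UMI level of a library with 0 UMIs. BMP4 has the highest point for every ligand, with the widest gaps for WNT5A (77.3 against 1.45 and 4.63 CPM) and WNT6.

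In CHIR over BMP4, 6 of the 7 ligands had at least 1 CPM in either library and 4 of them were at least 2-fold lower in CHIR, namely WNT3A, WNT5A, WNT6 and WNT8A. Over all 17127 genes measured in that pair, 4.69% were at least 2-fold lower and 4.77% at least 2-fold higher. In CHIR+Activin over BMP4 again 6 were measured and 5 were at least 2-fold lower, the same 4 with WNT5B, where 4.57% of all genes were at least 2-fold lower and 2.79% at least 2-fold higher. No ligand was at least 2-fold higher in these 2 pairs. WNT6 passed the 1 CPM filter through BMP4 alone, as did WNT3A in the second pair, so these could only be counted as lower. In CHIR+Activin over CHIR, 5 were measured and WNT5A alone was at least 2-fold apart, being higher, where 0.467% of all genes were at least 2-fold higher and 0.0958% at least 2-fold lower. The first 2 comparisons share the BMP4 library, the second and the last share CHIR+Activin, and the first and the last share CHIR. The median log2 ratio of the measured ligands was -2.17, -2.16 and 0.03 in the 3 pairs, beside 0.05, -0.01 and -0.07 over all genes. The first 2 medians include WNT6, which by the filter could only have a negative ratio. In the second pair this held for WNT3A too. With a stricter filter of 10 CPM, 2 ligands were at least 2-fold lower in CHIR over BMP4, 3 in CHIR+Activin over BMP4, and 0 at least 2-fold higher in CHIR+Activin over CHIR, where 3.09%, 2.88% and 0.183% of all genes were. WNT5A and WNT8A passed this stricter filter through BMP4 alone, so they too could only be counted as lower.

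WNT3 was the most abundant of the 7 ligands in every library. BMP4 cells held 88.6 CPM (interval 87.1 to 90.2), CHIR cells 63.1 CPM (62.0 to 64.3) and CHIR+Activin cells 64.5 CPM (63.2 to 65.9). The log2 ratio of CHIR to BMP4 was -0.49 (-0.53 to -0.45) and that of CHIR+Activin to BMP4 -0.46 (-0.50 to -0.42), both under 2-fold. CHIR and CHIR+Activin lay within counting error of each other, at 0.03 (-0.01 to 0.07). A WNT3 UMI was present in 56.4% of thinned BMP4 cells, as against 43.2% with CHIR and 43.8% with CHIR+Activin. Without thinning the shares were 63.3%, 70.1% and 61.0%, an order that differs from that of the CPM, the deeper CHIR library being highest.

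Within each library WNT3 was higher in cells with a UMI of MIXL1, a homeobox gene of the primitive streak. In BMP4 the mean was 1.06 WNT3 UMIs per thinned cell with MIXL1 and 0.523 without, a log2 ratio of 1.02 (0.92 to 1.12). For CHIR these means were 0.698 and 0.452, a log2 ratio of 0.63 (0.53 to 0.73), and for CHIR+Activin they were 0.763 and 0.445, a log2 ratio of 0.78 (0.68 to 0.87). The same direction was seen for TBXT, the brachyury factor of the streak, with log2 ratios of 0.75, 0.38 and 0.51. With SOX2, a pluripotency factor, the ratios were -0.52, -0.35 and -0.42, and the first was -1.13 when 2 SOX2 UMIs were required. So cells with streak markers had the higher WNT3 level in all 3 libraries, although cells without MIXL1 were not free of WNT3: 35.7%, 34.3% and 33.4% of them had a UMI.

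Across bins of MIXL1 UMIs, mean WNT3 in BMP4 was 0.523, 0.905, 0.991, 1.07 and 1.18 UMIs per cell at 0, 1, 2, 3 to 4, and 5 or more MIXL1 UMIs. In CHIR the same bins held 0.452, 0.602, 0.718, 0.761 and 0.802, and in CHIR+Activin 0.445, 0.667, 0.744, 0.880 and 0.826. Each bin of CHIR and CHIR+Activin lay below the same bin of BMP4. The gap between BMP4 and the other libraries was therefore present at matched MIXL1 counts as well.

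**Figure D2:**
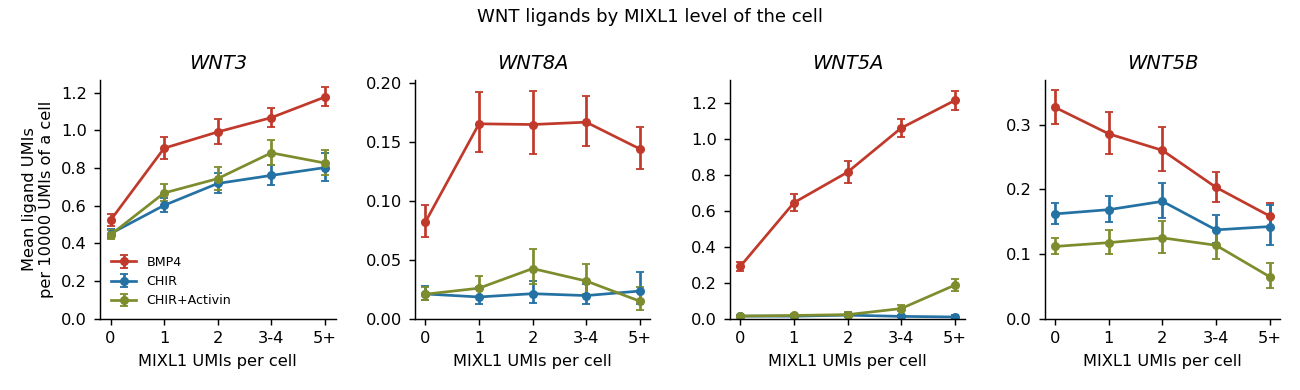
Mean UMIs of WNT3, WNT8A, WNT5A and WNT5B per cell (cells thinned to 10000 UMIs) against the number of MIXL1 UMIs in the cell, by library. Bars are exact Poisson 95% intervals. WNT3 is higher in each bin with MIXL1 than in the bin at 0 in all libraries, but in CHIR+Activin it is 0.880 at 3 to 4 and 0.826 at 5 or more. WNT5A climbs from 0.292 to 1.22 in BMP4 but stays at or below 0.0203 in CHIR, and WNT5B is lower at higher MIXL1 in BMP4.

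WNT3A was rare. BMP4 had 3.32 CPM (3.02 to 3.64), CHIR 1.05 CPM (0.905 to 1.21) and CHIR+Activin 0.927 CPM (0.769 to 1.11), the last 2 being 3.17-fold and 3.58-fold lower than BMP4. CHIR+Activin over CHIR was -0.18 on the log2 scale (-0.52 to 0.16), within counting error. The share of cells with a UMI was 3.04% in BMP4, 1.03% in CHIR and 0.902% in CHIR+Activin. In BMP4 the cells with WNT3A were mostly TBXT-positive: the mean was 0.0400 UMIs per cell with TBXT and 0.0107 without, a log2 ratio of 1.90 (1.25 to 2.63), which was 1.02 when cells were thinned to 5000 UMIs. The ratio for MESP1, a factor of nascent mesoderm, was 1.24 (0.79 to 1.70), or 0.58 at 5000 UMIs, and that for CDX2, a caudal homeobox gene, 0.96 (0.45 to 1.43). In the other libraries the intervals of the ratio by TBXT included 0, CHIR having a log2 ratio of 0.63 (-0.09 to 1.34) and CHIR+Activin one of 0.01 (-0.84 to 0.81).

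The window of 250 bases before the RefSeq start of WNT3A (GRCh38.p14, chr1:228006748-228006997, plus strand) is printed because TBXT was the gene most like WNT3A across clusters. Capitals mark the T-box half-site AGGTGT, read here on the minus strand, and the palindrome GGCGCC, a GC-rich letter string known from SMAD binding.
WNT3A: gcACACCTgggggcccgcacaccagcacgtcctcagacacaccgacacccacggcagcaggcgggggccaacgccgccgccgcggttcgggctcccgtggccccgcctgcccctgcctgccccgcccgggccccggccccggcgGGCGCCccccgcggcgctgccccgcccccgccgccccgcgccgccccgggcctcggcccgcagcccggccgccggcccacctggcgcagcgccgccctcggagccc
The T-box half-site lies at bases 3 to 8 and GGCGCC at bases 145 to 150 of this window. AGGTGT was also found at bases 1 to 6 of a WNT5B window, not printed because it overlaps an exon. WNT5B in BMP4 was 0.241 UMIs per cell with TBXT and 0.248 without. On both strands, AGGTGT was held by 9.57% and GGCGCC by 16.4% of all 34943 RefSeq windows of this length, so such a match describes letters and no more.

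WNT8A separated BMP4 from both CHIR99021 libraries. BMP4 had 13.4 CPM (12.8 to 14.0), CHIR 2.09 CPM (1.89 to 2.31) and CHIR+Activin 2.40 CPM (2.15 to 2.69), 6.41-fold and 5.57-fold lower than BMP4. A UMI was found in 12.0%, 2.02% and 2.46% of cells. In BMP4 the mean was 0.168 UMIs per cell with TBXT and 0.0641 without (log2 ratio 1.39, 1.12 to 1.67), and the ratio for MESP1 was 1.02 (0.82 to 1.23). SOX2-positive cells had less WNT8A, at -1.23 (-1.63 to -0.86), or -2.63 when 2 SOX2 UMIs were required. Unlike WNT3, WNT8A did not keep climbing with MIXL1: it was 0.0820 UMIs per cell at 0 MIXL1 UMIs, 0.165 at 1 and 0.144 at 5 or more. The log2 ratio by MIXL1 was 0.95, and 0.20 when cells were thinned to 5000 UMIs. Among TBXT-positive cells alone, WNT8A was 0.168 in BMP4, 0.0212 in CHIR and 0.0337 in CHIR+Activin, with log2 ratios to BMP4 of -2.98 (-3.43 to -2.56) and -2.32 (-2.68 to -1.97), beside -2.68 and -2.48 over all cells.

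WNT5A showed the widest range of the 7 ligands in CPM. BMP4 had 77.3 CPM (75.8 to 78.8), CHIR 1.45 CPM (1.28 to 1.63) and CHIR+Activin 4.63 CPM (4.27 to 5.02). CHIR was 53.4-fold lower than BMP4, with a log2 ratio of -5.74 (-5.92 to -5.56), and CHIR+Activin was 16.7-fold lower, at -4.06 (-4.18 to -3.94). CHIR+Activin was 3.20-fold above CHIR (1.68, 1.47 to 1.89). The share of cells with a UMI was 37.2% in BMP4, 1.49% in CHIR and 3.13% in CHIR+Activin. Its antisense gene WNT5A-AS1, listed apart, had 169, 10 and 5 UMIs. The sources used here do not say whether strand was used in counting, and whether reads of one gene are counted for the other was not tested.

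The 250 bases before the downstream of the 2 RefSeq starts of WNT5A (GRCh38.p14, chr3:55481399-55481648, minus strand) are printed because the level of this gene in CPM differed most between the libraries. It holds none of the motifs searched on both strands, so all its letters are in lower case.
WNT5A: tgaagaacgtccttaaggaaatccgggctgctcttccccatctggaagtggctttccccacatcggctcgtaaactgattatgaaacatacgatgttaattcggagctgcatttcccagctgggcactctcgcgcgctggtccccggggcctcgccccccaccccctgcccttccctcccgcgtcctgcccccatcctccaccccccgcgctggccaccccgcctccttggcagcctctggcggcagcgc
Beside the T-box half-site and GGCGCC, a TCF/LEF string was searched for, CTTTG followed by 2 bases that are each A or T, which 12.0% of all windows held. A GATA string, the letters GATAA after an A or a T, was held by 14.6%. A CDX string, the letters TTTAT before a G or a T, was held by 22.6%. It was found at bases 138 to 143 of the other WNT5A window and, on the minus strand, at bases 221 to 226 of the WNT8A window. Both windows overlap an exon and are not printed. No TCF/LEF string was found in any of the 8 windows of the 6 ligands that matched, which says only that these letters are not in these windows.

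In BMP4, WNT5A followed mesoderm genes and was low in cells with SOX2. The mean was 1.31 UMIs per cell with GATA6, a factor of mesoderm and endoderm, and 0.153 without, a log2 ratio of 3.10 (2.97 to 3.24) that was 2.49 with cells thinned to 5000 UMIs. For MESP1 the means were 1.29 and 0.187 (2.78, 2.66 to 2.91). HAND1, a factor of lateral and extraembryonic mesoderm, gave 1.84 (1.76 to 1.91), and SOX2 gave -2.36 (-2.59 to -2.14), or -3.81 with 2 SOX2 UMIs required. A WNT5A UMI was found in 55.8% of MESP1-positive and 12.9% of MESP1-negative cells. TBXT alone did not mark these cells: WNT5A averaged 1.28 in the 3447 cells with both TBXT and MESP1, 1.38 in the 537 cells with MESP1 but no TBXT, and 0.262 in the 1629 cells with TBXT but no MESP1.

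CHIR+Activin held a small group of cells with much WNT5A. A single cell reached 16 WNT5A UMIs, whereas no CHIR cell held more than 2. Of 6876 cells, 367 had a WNT5A UMI and 78 carried 50% of the library's WNT5A UMIs. In CHIR, 258 cells had a WNT5A UMI and 124 carried 50% of them. The mean was 0.694 UMIs in the 173 MESP1-positive cells and 0.0239 in the others, a log2 ratio of 4.86 (4.50 to 5.22). In the 52 HAND1-positive cells it was 1.35 against 0.0311 (5.43, 5.02 to 5.83). For LHX1, a factor of the anterior streak, the ratio was 4.04 (3.69 to 4.40), and for SOX2 it was -2.08 (-2.56 to -1.63). The 118 cells with both TBXT and MESP1 had 0.763 UMIs and the 2020 cells with TBXT but no MESP1 had 0.0431. MESP1-positive cells of CHIR+Activin and BMP4 differed in WNT5A by -0.90 on the log2 scale (-1.17 to -0.64), against -4.06 over all cells.

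In CHIR, WNT5A was low in every marker group that could be formed. TBXT-positive cells had 0.0164 and TBXT-negative cells 0.0145 UMIs (log2 ratio 0.18, -0.44 to 0.78), and the ratios for MIXL1, EOMES, SOX2, GATA6, CER1 and LHX1 also had intervals that include 0. MESP1 was found in 40 thinned CHIR cells and HAND1 in 9, too few for a group of at least 50 cells. Among TBXT-positive cells, WNT5A stood at 0.952 UMIs in BMP4, 0.0164 in CHIR and 0.0828 in CHIR+Activin, log2 ratios to BMP4 of -5.86 (-6.37 to -5.40) and -3.52 (-3.75 to -3.31). TBXT itself was found in 72.1%, 32.8% and 32.7% of cells, and these cells differed between libraries in other genes too, MESP1 among them.

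**Figure D3:**
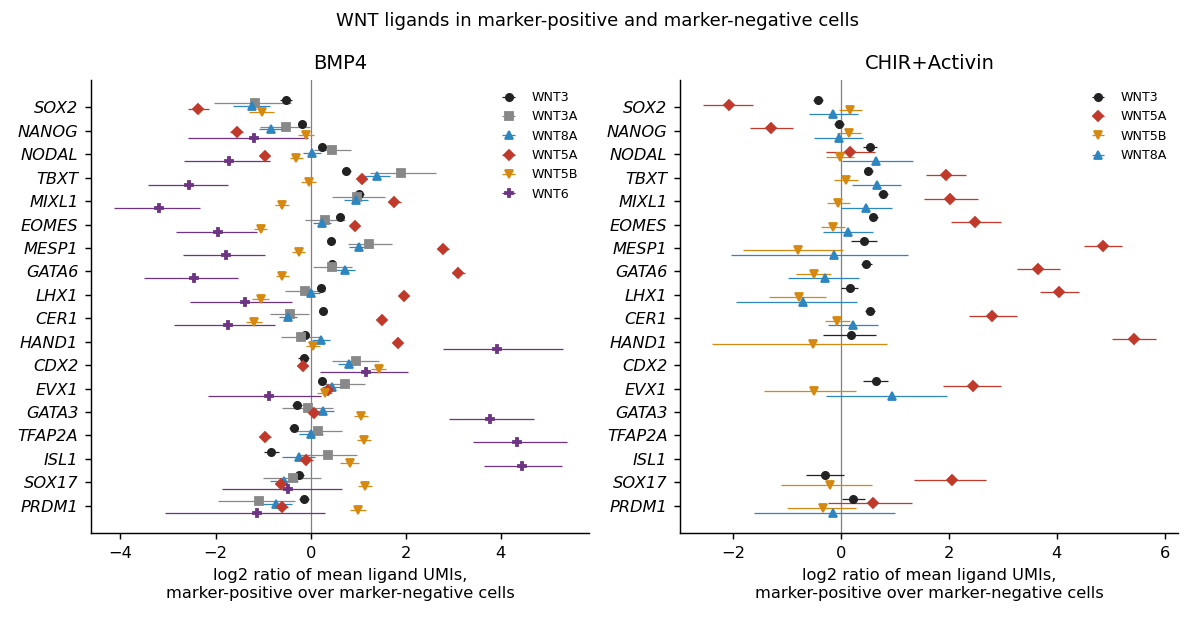
Log2 ratio of mean ligand UMIs per thinned cell between marker-positive and marker-negative cells in BMP4 (left) and CHIR+Activin (right), with 95% counting intervals; ligands with under 3 UMIs in either group, and markers found in under 50 cells, have no point. In BMP4 WNT5A lies right of 0 for MESP1 (2.78) and GATA6 (3.10), WNT5B for CDX2 (1.44) and SOX17 (1.15), and WNT6 for ISL1 (4.44), while in CHIR+Activin WNT5A reaches 5.43 for HAND1.

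WNT5B followed other marker genes than WNT5A in BMP4, although the same cells could hold both: WNT5A was found in 34.9% of cells with WNT5B and 37.7% of those without. BMP4 had 24.7 CPM (23.9 to 25.6), CHIR 16.3 CPM (15.8 to 16.9) and CHIR+Activin 11.0 CPM (10.4 to 11.6), with log2 ratios to BMP4 of -0.60 (-0.67 to -0.53) and -1.17 (-1.26 to -1.08). It was the one ligand lower in CHIR+Activin than in CHIR beyond counting error, at -0.57 (-0.67 to -0.48). A UMI was found in 18.9%, 14.0% and 9.83% of cells. In BMP4 it was higher in cells with CDX2 (log2 ratio 1.44, 1.28 to 1.59), SOX17, a factor of endoderm and germ cells (1.15, 0.99 to 1.30), and the amnion and trophoblast factors TFAP2A (1.12, 0.97 to 1.27) and GATA3 (1.05, 0.90 to 1.20). It was lower in cells with CER1, a secreted inhibitor (-1.19, -1.36 to -1.03), EOMES, which marks the streak and early endoderm (-1.05, -1.19 to -0.91), and LHX1 (-1.05, -1.23 to -0.88). Across bins of MIXL1 UMIs, WNT5B in BMP4 was 0.327 UMIs per cell at 0 and 0.159 at 5 or more, the opposite order to WNT3 and WNT5A.

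WNT6 was found almost wholly in BMP4. It had 143 UMIs there (1.04 CPM, 0.879 to 1.23), 0 in CHIR and 1 in CHIR+Activin. CHIR was at least 64.4-fold lower, taken against 3 UMIs in the library. CHIR+Activin had a log2 ratio of -7.09 with a counting interval from -12.40 to -4.59. In CHIR, 0 of 7084 cells had a UMI, which allows a share of cells with a UMI of up to 0.0423%, taken as 3 cells of the total (the Clopper-Pearson upper limit is 0.0521%). Within BMP4 a UMI was found in 6.11% of ISL1-positive and 0.312% of ISL1-negative cells, with a log2 ratio of mean UMIs of 4.44 (3.64 to 5.28). The ratio was 4.34 for TFAP2A (3.41 to 5.38), 3.77 for GATA3 (2.92 to 4.69) and -3.20 for MIXL1 (-4.14 to -2.33). ISL1, TFAP2A and GATA3 are factors of amnion and trophoblast, and WNT6 was thus highest in cells that carry their RNA.

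The 250 bases before the RefSeq start of WNT6 (GRCh38.p14, chr2:218859555-218859804, plus strand) are printed beside this near absence outside BMP4. None of the motifs named above was found in this window, so no letter is in capitals.
WNT6: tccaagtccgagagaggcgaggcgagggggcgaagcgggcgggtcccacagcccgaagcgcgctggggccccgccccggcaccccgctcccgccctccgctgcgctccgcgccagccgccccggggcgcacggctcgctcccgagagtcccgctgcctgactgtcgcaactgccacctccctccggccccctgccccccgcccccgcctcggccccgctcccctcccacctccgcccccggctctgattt

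WNT11 was near the limit of detection, with 35 UMIs for BMP4 (0.255 CPM, 0.178 to 0.355), 25 for CHIR (0.135 CPM, 0.0874 to 0.199) and 8 for CHIR+Activin (0.0613 CPM, 0.0264 to 0.121). It did not reach 1 CPM in any library and entered no comparison. The intervals of BMP4 and CHIR overlap, as do those of CHIR and CHIR+Activin.

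Each library was also clustered on its own, with all WNT ligand genes left out of the genes clustered on. BMP4 gave 9 clusters, CHIR 8 and CHIR+Activin 8, of which most carried no name by the markers. In BMP4, WNT5A ranged from 3.76 CPM in the 814 epiblast-like cells of cluster 6, which had SOX2 among its leading genes, to 210 CPM in the 2371 cells of cluster 1. That cluster held 62.6% of the library's WNT5A UMIs and passed on all 10 nascent mesoderm markers (MESP1, TBX6 and MSGN1 among them), but stayed unnamed because the streak marker LHX1 was among its leading genes. Cluster 9 was also named epiblast-like, by the markers USP44, ESRG and TERF1, and had 140 cells with a median of 4556 UMIs. Its SOX2 was 18.8 CPM against 143 CPM in cluster 6, and its GATA6 123 CPM against 6.87 CPM. It had WNT5A at 79.7 CPM (60.1 to 104) and WNT3 at 52.2 CPM (36.6 to 72.3). Both intervals include the free RNA level of BMP4 droplets given below, 86.3 CPM for WNT5A and 69.1 CPM for WNT3. Whether these cells are epiblast, and how much of their WNT5A is free RNA, was not tested. Cluster 2, with the streak markers FGF8, FGF4 and NODAL and the epiblast markers NANOG, USP44 and ESRG, had WNT3 at 108 CPM but WNT5A at 11.2 CPM. WNT3 and WNT5A RNA were thus not confined to the same cells: WNT3 was 102 CPM in cluster 1 and 108 CPM in cluster 2, while WNT5A was 210 and 11.2 CPM.

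WNT3 in BMP4 was lowest in cluster 6 (30.4 CPM, 27.4 to 33.6) and in the 853 amnion or trophoblast-like cells of cluster 4 (41.7 CPM, 38.4 to 45.1). That cluster 4 held 91.6% of the WNT6 UMIs, at 8.87 CPM (7.42 to 10.5), with a UMI in 7.70% of its cells and in 0 of the 637 thinned cells of cluster 6. WNT5B was high in 3 clusters: 62.2 CPM in cluster 8, 57.7 CPM in the 840 primordial germ cell-like cells of cluster 5, led by NANOS3, PRDM1 and SOX17, and 42.6 CPM in cluster 4, against 7.91 CPM in cluster 6 and 9.88 CPM in cluster 1. The first 2 of these had overlapping intervals (56.2 to 68.7 and 53.6 to 62.0). Cluster 8, 437 cells with the caudal and mesoderm markers CDX1, CDX2, EVX1 and MSGN1, also held the highest WNT3A (9.07 CPM, 6.87 to 11.8) and WNT8A (38.7 CPM, 34.0 to 43.9), and WNT5A at 99.8 CPM. With resolution 0.3 the highest cluster levels were 4.57 CPM for WNT3A and 17.9 CPM for WNT8A, in clusters of which cells from cluster 8 made up 6.63% and 5.53%, and WNT6 was 5.17 CPM at its highest.

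**Figure D4:**
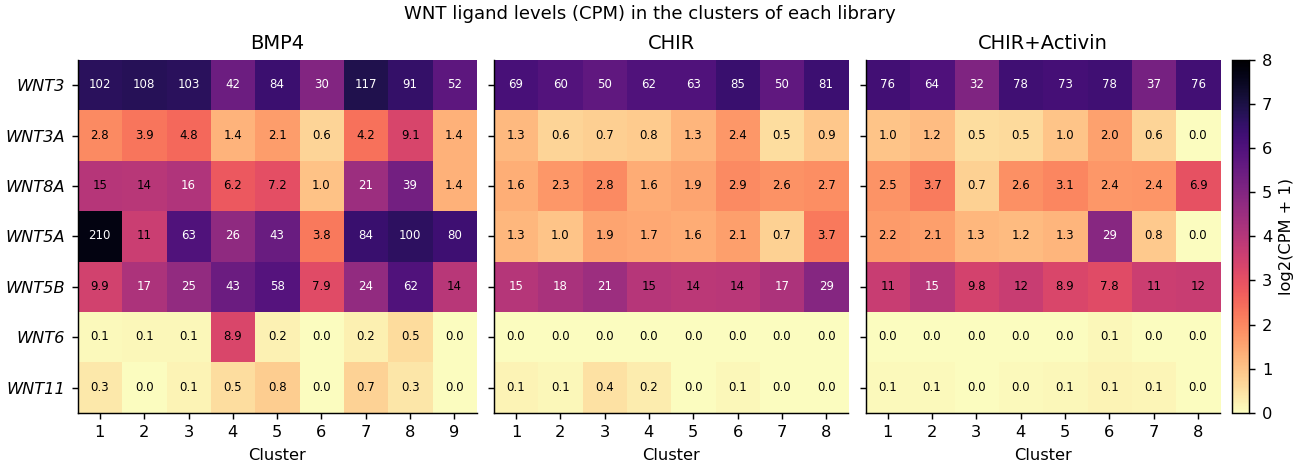
Levels (CPM, printed in each box; colour gives log2(CPM + 1)) of the 7 WNT ligands in the clusters of the 3 libraries, each clustered on its own, so that cluster numbers do not match between panels. WNT5A stands out in BMP4 cluster 1 (210 CPM) and CHIR+Activin cluster 6 (28.8 CPM), and WNT6 in BMP4 cluster 4 (8.87 CPM). In CHIR, WNT3 ranges from 49.7 to 84.8 CPM and WNT5A from 0.701 to 3.66 CPM, which rest on 6 and 4 WNT5A UMIs.

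In CHIR, WNT3 ranged from 49.7 (46.8 to 52.7) to 84.8 CPM over its 8 clusters, the highest being the 412 primitive streak-like cells of cluster 6 (80.0 to 89.9). The interval of cluster 8, at 80.5 CPM (64.6 to 99.2), overlapped with it. With resolution 1 the highest WNT3 cluster shared 3 cells with that cluster 6, and with resolution 0.3 it shared 2. WNT3A was also highest in cluster 6, at 2.36 CPM (1.61 to 3.33), against 0.467 CPM (0.127 to 1.20) in cluster 7. Its interval overlapped with that of cluster 5, at 1.34 CPM (0.939 to 1.86). WNT5A ranged from 0.701 CPM in cluster 7 (6 UMIs, 0.257 to 1.53) to 3.66 CPM in cluster 8 (4 UMIs, 0.997 to 9.37), with overlapping intervals. In CHIR+Activin, WNT5A was 28.8 CPM (26.1 to 31.7) in the 759 endoderm-like cells of cluster 6, led by LHX1, SOX17 and GATA6, and between 0 and 2.21 CPM in the other 7 clusters. The 0 belongs to the 74 cells of cluster 8, where the upper limit is 8.50 CPM. Cluster 6 held 68.8% of the library's WNT5A UMIs, with a UMI in 16.3% of its thinned cells. It passed on 6 endoderm markers and also on 6 streak markers, the nascent mesoderm markers MESP1, APLNR, SNAI1 and DLL3, and the lateral or extraembryonic mesoderm markers BMPER and GATA4. WNT3 in CHIR+Activin was lowest in the epiblast-like cluster 3, at 32.3 CPM, and cluster 7, at 36.6 CPM, and between 63.9 and 78.2 CPM elsewhere.

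Ligands were also compared cell by cell in BMP4. A WNT5A UMI was found in 48.2% of cells with WNT8A and 35.7% of cells without. WNT8A was found in 21.5% of the 214 thinned cells with WNT3A (16.2 to 27.6) and in 11.7% of the others (11.0 to 12.5), and WNT3 in 71.5% and 55.9% of them. WNT3A and WNT5A showed no such link, with WNT5A in 39.3% of cells with WNT3A (32.7 to 46.1) and 37.1% of those without. WNT6 was found in 0.227% of cells with WNT3 and 1.60% of cells without.

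The genes whose levels were most like each ligand's over the 25 clusters were named by Pearson's r of log2(CPM + 1), as a description, since the clusters share libraries and depth. WNT5A was most like APLNR, the apelin receptor of early mesoderm (r = 0.977), followed by RSPO3, MMP14, MPZL1 and UNC5C. For APLNR r was 0.944, 0.592 and 0.972 within BMP4, CHIR and CHIR+Activin. WNT3A was most like TBXT (0.904 in all, and 0.866, 0.814 and 0.817 within the libraries), then EVX1, AMIGO2, LNCDAT and SKA1. WNT8A was most like TCF7, which encodes a transcription factor that binds beta-catenin (0.906), then MSGN1, CD1D, TMEM243 and LINC00467. WNT3 was most like PANCR (0.856), CAMKK2, TSPAN12, VANGL1 and SERPINE2, and WNT5B like LRP4 (0.824), RAP2C, TRAF3IP2, HNMT and SDC2. Several of these relations did not hold within a library: MSGN1 with WNT8A had r = 0.39 in CHIR and -0.09 in CHIR+Activin. In CHIR+Activin, r with WNT5B was -0.02 for RAP2C, 0.05 for TRAF3IP2 and -0.13 for SDC2. WNT6 was most like TCIM (0.983), CLIC5, C11orf96, ENSG00000288015 and AMER2, a pattern set by BMP4 cluster 4.

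Other genes of the pathway were read from lists. The shares of all genes at least 2-fold lower and higher, 4.69% and 4.77% in CHIR over BMP4 and 4.57% and 2.79% in CHIR+Activin over BMP4, stand beside the counts below. Counts of 1 to 3 genes in lists this short are values of the genes named and not results on the lists. Of 12 other WNT ligands, 4 were measured in each pair with BMP4 and WNT2 was the one at least 2-fold lower, at 2.24 CPM in BMP4, 0.0432 CPM in CHIR and 0.0306 CPM in CHIR+Activin. WNT2 passed the 1 CPM filter through BMP4 alone, so it could only be counted as lower. Among 10 genes for the acylation, secretion and release of WNT proteins, all measured, 2 were at least 2-fold lower in both pairs. WLS, the carrier that takes WNT proteins to the cell surface, was 125 CPM in BMP4, 23.1 CPM in CHIR and 24.7 CPM in CHIR+Activin, and NOTUM, which removes their lipid, had log2 ratios of -2.84 and -2.03. PORCN, which adds that lipid, was under 2-fold apart (0.34 and 0.35). Of 16 receptors and co-receptors, FZD5 (1.15 and 1.19) and FZD9 were higher in CHIR and CHIR+Activin, FZD4 and ROR2 (-1.31 and -1.10) were lower, and the other 12 were under 2-fold apart. ROR2 is a receptor for WNT5A.

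Of 13 beta-catenin target and feedback genes, SP5 was at least 2-fold higher in CHIR over BMP4 (1.04) and LEF1, LGR5 and DKK1 were lower, while LEF1, NKD1 and LGR5 were lower in CHIR+Activin over BMP4. AXIN2, a feedback inhibitor, was under 2-fold apart, at 0.63 and 0.52. Of 12 planar polarity and noncanonical pathway genes, PRICKLE1 was lower in both (-2.54 and -1.79) and the others were under 2-fold apart. In CHIR+Activin over CHIR, LGR5 was the single gene of these lists at least 2-fold apart, being higher.

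Free RNA was measured in 1592061 BMP4 droplets of 100 UMIs or fewer, which had WNT3 at 69.1 CPM, WNT5A at 86.3 CPM, WNT5B at 25.6 CPM and WNT8A at 23.4 CPM. WNT3A was at 2.86 CPM (1.77 to 4.37) and WNT6 at 0.953 CPM (0.383 to 1.96) in them. Free RNA of WNT5A and WNT8A lay above their levels in BMP4 cells, and that of WNT5B, WNT3A and WNT6 within counting error of them. A low share of cells with a UMI can come from this RNA. In BMP4 cluster 6 a WNT5A UMI was found in 2.83% of cells (median depth before thinning 13358.5 UMIs per cell), against 79.6% in cluster 1 (12303). How much of the first value is free RNA was not tested. The low WNT5A level of CHIR, at 1.49% of cells, lies below that share, and whether it is expression was not tested, since empty droplets of that library were not analysed here.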

How the data were processed

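Droplet 3' single-cell RNA libraries (10x Genomics v3.1 chemistry, per the labels' protocols) were deposited by the authors as matrices of unnormalised UMI counts. Per the file headers, these came from Cell Ranger 8.0.1. Seurat is named in the submitters' processing notes, and the sources used here name no genome build for the counts. There were 7706 barcodes for CHIR and 7391 for CHIR+Activin. The BMP4 matrix held all 1935344 barcodes, of which the 9440 with at least 3739 UMIs (10% of the 99th percentile among the 10000 largest) were taken as cells. Cells with fewer than 2000 genes or over 15% mitochondrial UMIs were left out, which removed 39, 622 and 515 barcodes and left 137174566, 185215378 and 130592423 UMIs in BMP4, CHIR and CHIR+Activin. Doublets were not removed, since the automatic Scrublet threshold called 0 cells in each library. Removing the highest 6% of scores was an alternative.

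UMIs were summed over the cells of a library or cluster and scaled to CPM. Levels carry exact Poisson, shares exact Clopper-Pearson and ratios exact conditional binomial 95% intervals. Library pairs were compared over the genes that reached 1 CPM in one of them, and 2-fold or more was called, with no test. A marker-positive cell had at least 1 UMI of the marker after thinning to 10000 UMIs, and groups under 50 cells were not used. Each library was clustered with scanpy 1.11.5 and igraph 0.11.9 (2000 variable genes, 30 principal components, 20 neighbours, Leiden resolution 0.6) without any WNT ligand gene. Clusters were named for the class with most markers at 1.5-fold over the other clusters and 10 CPM, given at least 3 such markers and no more leading genes from another class. Numerical steps used Python 3.11.15, numpy 2.4.6 and scipy 1.17.1, and were tested on simulated data.

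Beside the 7 ligands, the named genes are the 5 most like each ligand with at least 1 CPM in some library, among genes of at least 20 CPM in a cluster, and members of the marker and pathway lists. The ligands and lists were chosen with earlier results of these data known. Promoter windows came from RefSeq (GRCh38.p14), in which 6 of the 7 ligands were matched, with WNT11 the one without an entry. Windows that overlap an annotated exon are not printed.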

Additional observations from a re-analysis of the deposited data

How the results depend on the processing

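With a filter of at least 10 CPM in place of 1 CPM, the ligands at least 2-fold apart numbered 2 in place of 4 in CHIR over BMP4, 3 in place of 5 in CHIR+Activin over BMP4 and 0 in place of 1 in CHIR+Activin over CHIR, because fewer ligands were measured. WNT5A and WNT8A reached 10 CPM in BMP4 alone, so in the pairs with BMP4 they could only be counted as lower. With no filter the last count was 3, which adds the low-count WNT6 and WNT11. WNT6 had 1 UMI in CHIR+Activin and 0 in CHIR, the latter set at 3 UMIs, so its call comes from that setting. With every cell weighted equally the first 2 counts were 3 and 4. The 17 log2 ratios of ligands between libraries kept their sign and stayed within their counting intervals with median-of-ratios scaling, a stricter cell filter and doublet removal. So did the 12 ratios to BMP4 with a doubled UMI minimum in BMP4, and the 16 that can be formed with cells weighted equally. The log2 ratio of WNT8A between LHX1-positive and LHX1-negative CHIR cells turned from 1.30 to -0.56 when cells were thinned to 5000 UMIs, and the cause was not tested. Thinning to 5000 UMIs also brought the BMP4 ratio of WNT8A by MIXL1 from 0.95 to 0.20, and that of WNT5A by MIXL1 from 1.76 to 1.12. Of 217 ratios of ligands by marker in the 3 libraries, 76 moved at 5000 UMIs and 180 kept their sign. When 2 UMIs of the marker were required, 76 of 200 such ratios moved and 177 kept their sign. Requiring 2 SOX2 UMIs moved the BMP4 ratio of WNT5A by SOX2 from -2.36 to -3.81. Shares of cells with a UMI depend on the thinning depth: 18 of 21 moved at 5000 UMIs, and those of WNT3 were 34.8%, 25.5% and 26.4%. Of 16 highest cluster levels, 9 moved with resolution 0.3 and 5 with resolution 1. With resolution 1 the BMP4 cluster highest in WNT5B, at 60.2 CPM, shared 0 cells with cluster 8, whereas those highest in WNT5A, WNT6, WNT3A and WNT8A overlapped with the clusters named in the text. With resolution 0.3 those of WNT8A and WNT3A fell from 38.7 to 17.9 CPM and from 9.07 to 4.57 CPM in BMP4. No paired analysis was possible because each treatment has 1 library. The depth leaves WNT11, and WNT6 outside BMP4, with too few UMIs to place among cells.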
